A study of Mus musculus with 70 samples.

Results

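Antigen presentation was followed here through 10 genes of the mouse major histocompatibility complex (MHC) pathway, out of 50789 gene identifiers counted by RNA sequencing. They were chosen by name as class I and class II presentation genes: the class I heavy chains H2-D1 and H2-K1, the class I light chain B2m, the peptide transporter subunit Tap1, the immunoproteasome subunit Psmb8, the class II chains H2-Aa, H2-Ab1 and H2-Eb1, the invariant chain Cd74 and the class II transactivator Ciita. All 10 were found in the count table and all 10 passed the filter on low counts in each tissue. The study asked how the short and the long isoform of Capicua (Cic), a transcriptional repressor, differ in the tissues that depend on them. Mice with a knockout of the short isoform (Cic-S-KO) or of the long one (Cic-L-KO) and WT littermates of both lines, pooled into 1 control group, were sampled as postnatal day 6 lung (batch 1) and as 12-week-old cortex and cerebellum (batch 2). Each group held 8 samples except Cic-S-KO cortex and Cic-S-KO cerebellum, with 7 each, giving 70 samples in 9 groups. The labels name no Cre line, strain or sex, do not say which line a WT littermate came from and do not say that samples of 1 group are separate animals, so the p-values measure the spread between these samples. Lung and brain differ in age and batch as well as tissue, and those cannot be told apart.

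Class I molecules display peptides from proteins made inside the cell to CD8 T cells. Psmb8 cuts those peptides, Tap1 helps to pump them into the endoplasmic reticulum, and there they are loaded onto a heavy chain paired with B2m. Nearly all nucleated cells make class I, and interferons raise the whole set. Class II molecules display peptides from material that has been taken up. They are made mainly by dendritic cells, B cells and macrophages, assembled on the invariant chain Cd74 and switched on together by Ciita; in healthy brain they are scarce.

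Depth ranged from 17798655 to 35523037 counted reads per sample, so the scarce genes of brain rest on far fewer reads per library than the class I heavy chains of lung. Counting is given per gene and does not tell the Cic isoforms apart, so it cannot check the knockouts directly. Cic itself was higher than in WT in Cic-S-KO lung (log2 fold change 0.31, SE 0.05, edgeR adjusted p = 6.41e-05) and in both cortex knockouts (0.63, SE 0.04, adjusted p = 1.35e-12 in Cic-S-KO, and 0.88, SE 0.04, adjusted p = 9.49e-18 in Cic-L-KO). It was also higher in Cic-L-KO cerebellum (0.15, SE 0.05, adjusted p = 0.0253); Cic-S-KO cerebellum (0.15, SE 0.05, adjusted p = 0.05004) and Cic-L-KO lung (-0.04, SE 0.05, adjusted p = 0.681) were not called.

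The class I heavy chains share both promoter and coding sequence, and the sequence shared between transcripts bears on how separately their counts can be read. Within the 250 bases before the RefSeq gene start, H2-D1, H2-K1 and the related genes H2-Q6 and H2-Q7 carry nearly the same stretch, shown here because these are the genes whose changes recurred across tissues. Capitals mark GGGGATTCC, a core recognised by NF-kappaB proteins, and GTTTCACTT, the reverse strand of the interferon-response core AAGTGAAAC. In GENCODE, whose H2-D1 model starts further upstream, the H2-D1 window is exonic over all 250 bases, as are those of Tap1 and Psmb8, and 88 bases of the H2-Eb1 window are exonic; the windows of H2-K1, H2-Q6, H2-Q7 and H2-Aa overlap no exon. Sequences are from RefSeq for GRCm38.p6, 5′ to 3′ on the gene's strand.
H2-D1, chr17:35262923-35262951, plus strand: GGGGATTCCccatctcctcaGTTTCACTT
H2-K1, chr17:34000430-34000458, minus strand: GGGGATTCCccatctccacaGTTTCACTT
H2-Q6, chr17:35424677-35424705, plus strand: GGGGATTCCccatctccccaGTTTCACTT
H2-Q7, chr17:35439022-35439049, plus strand: GGGGATTCCcatctccccaGTTTCACTT

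Searched on both strands, GGGGATTCC was present in 0.213% and AAGTGAAAC in 0.338% of the 32851 RefSeq windows of 250 bases before a gene start. These motifs were chosen after the promoters had been read, so the matches are a description. The whole 250-base window of H2-K1, which overlaps no annotated exon, shows the same pair at 111 and 91 bases before the start (chr17:34000348-34000597, minus strand).
H2-K1: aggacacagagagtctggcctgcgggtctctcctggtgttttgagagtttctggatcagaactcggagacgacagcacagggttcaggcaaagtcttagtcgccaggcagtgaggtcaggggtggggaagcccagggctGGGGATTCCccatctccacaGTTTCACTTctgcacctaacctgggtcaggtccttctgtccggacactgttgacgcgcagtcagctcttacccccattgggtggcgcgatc
The class II gene H2-Aa has another arrangement, with TGACGTCA (the cyclic AMP response element, present in 1.55% of windows) at 74 bases and CTGATTGG (the reverse strand of the Y box CCAATCAG, present in 3.83%) at 51 bases before the start (chr17:34287824-34288073, minus strand).
H2-Aa: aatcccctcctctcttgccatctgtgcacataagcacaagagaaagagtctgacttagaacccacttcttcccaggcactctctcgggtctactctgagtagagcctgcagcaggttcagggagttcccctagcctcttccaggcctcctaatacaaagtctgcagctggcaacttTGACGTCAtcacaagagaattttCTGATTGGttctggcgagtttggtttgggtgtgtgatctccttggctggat
The class II window of H2-Eb1 also held CTGATTGG, the windows of H2-D1, H2-Q6, H2-Q7 and Tap1 held CCAATCAG, and that of B2m held GAAACTGAAA, a match to the core of the interferon-stimulated response element (GAAA, any 2 bases, GAAA, found in 2.98% of windows). The Capicua octamers TGAATGAA (1.08% of windows) and TGAATGGA (1.01%) were not among the letters of the 7 members' windows that the table holds.

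Along their reading frames H2-D1 (1086 bases) and H2-K1 (1107 bases) were identical at 91.5% of aligned positions. Their longest identical run was 91 bases, in exon 4, which encodes the domain that contacts B2m and CD8; it lies at chr17:35265911-35266001 on the plus strand in H2-D1 and at chr17:33997343-33997433 on the minus strand in H2-K1, and H2-Q6 and H2-Q7 hold it too.
Shared run of exon 4: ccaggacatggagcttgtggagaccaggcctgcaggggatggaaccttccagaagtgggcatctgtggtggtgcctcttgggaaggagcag
Of all distinct 50-base windows in annotated transcripts, 12.8% of those of H2-D1 and 9.63% of those of H2-K1 occurred in another gene as well, against 32.0% for H2-Q6 and 26.4% for H2-Q7. B2m, H2-Ab1 and H2-Eb1 shared none and H2-Aa 0.488%. With windows of 100 bases the shares fell to 3.59% for H2-D1, 0.957% for H2-K1, 10.8% for H2-Q6 and 12.0% for H2-Q7. The labels give no read length, so the window that applies is not known. A read inside a shared run cannot be assigned to 1 gene, so the class I heavy chain counts, and those of H2-Q6 and H2-Q7 most, are uncertain in a way that B2m and the class II counts are not. An H2 haplotype other than that of the reference strain would also change which reads align; the labels give no haplotype and its part in the results was not tested. H2-Ea-ps, the gene model of the class II E alpha chain in the reference strain, chosen after its values were seen, had between 0 and 7 reads summed over any of the 9 groups.

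Of the genes, 7 lie on chromosome 17 in GRCm38. H2-K1 spans 33996017-34000347, Tap1 34187553-34197225, Psmb8 34197721-34201454, H2-Ab1 34257689-34269419, H2-Aa 34282744-34287823, H2-Eb1 34305867-34316674 and H2-D1 35262730-35267499. B2m is on chromosome 2 at 122147686-122153083 and Ciita on chromosome 16 at 10480059-10528418. Annotated genes overlap B2m (Patl2), Tap1 (Psmb9), Ciita (Dexi), H2-Eb1 (Gm20513) and Psmb8 (Gm20496) on the opposite strand; strand use in counting is not given in the sources used here, so reads of these partners cannot be told apart from those of the members.

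In WT tissue all 10 genes had their highest level in lung. Levels are given as CPM, counts scaled to library size, after TMM scaling within a tissue; in bulk tissue fewer cells of a type and less RNA per cell cannot be told apart. H2-D1 was at 435 ± 115 CPM in lung, 151 ± 5.33 in cerebellum and 35.4 ± 1.14 in cortex (mean ± SD, n = 8 each). H2-K1 was at 281 ± 120 CPM in lung but only 26.2 ± 3.77 in cerebellum and 23.4 ± 2.11 in cortex, so that cerebellum was set apart by H2-D1 and not by H2-K1. B2m was at 316 ± 110, 67.7 ± 6.05 and 72.2 ± 3.61 CPM in the same order. Tap1 was at 54.4 ± 40.7, 2.92 ± 0.59 and 2.34 ± 0.76 CPM, and Psmb8 at 15.4 ± 5.92, 0.714 ± 0.197 and 0.976 ± 0.362.

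The class II chains and Cd74 showed a wider gap between lung and brain than the class I genes did. Cd74 (chromosome 18, 60803848-60812652) was at 267 ± 35.6 CPM in lung, 3.01 ± 1.02 in cerebellum and 2.44 ± 0.80 in cortex. H2-Aa was at 90.1 ± 17.7, 1.79 ± 0.49 and 1.20 ± 0.66 CPM, H2-Ab1 at 80.9 ± 19.8, 2.07 ± 0.65 and 1.24 ± 0.46, and H2-Eb1 at 71.5 ± 15.6, 2.31 ± 0.82 and 1.99 ± 0.84. Ciita, the switch for these genes, was low throughout, at 12.7 ± 5.70, 2.56 ± 0.53 and 2.46 ± 0.71 CPM. Lung and brain levels were set side by side without a test, because age and batch differ with the tissue.

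Genes were also set side by side per kilobase of annotated exon, taken over all transcripts of a gene. That length can exceed the transcripts present by different amounts per gene, so the order is a rough guide. The level in WT lung ran from B2m (367 CPM per kb) through H2-D1 (169), Cd74 (159) and H2-K1 (95.6) to the class II chains H2-Eb1 (36.8), H2-Ab1 (31.5) and H2-Aa (23.7), then Tap1 (9.93), Psmb8 (4.56) and Ciita (1.33). The neighbours H2-D1 and Cd74, H2-Eb1 and H2-Ab1, H2-Ab1 and H2-Aa, and Tap1 and Psmb8, did not differ beyond their spread (SD 44.7 and 21.2, 8.02 and 7.69, 7.69 and 4.66, and 7.43 and 1.75 CPM per kb). In WT cortex B2m stood at 83.9 CPM per kb and H2-D1 at 13.7, and the class II genes and Ciita stood between 0.258 and 1.45. In WT cerebellum B2m stood at 78.7 and H2-D1 at 58.5 CPM per kb, and the class II genes and Ciita between 0.269 and 1.79.

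Between the brain regions, which share age and batch, WT cortex and WT cerebellum were tested against each other. Of the 10 genes 4 passed at an edgeR adjusted p under 0.05, on a background of 73.5% of 18032 genes tested. H2-D1 was lower in cortex by far (log2 difference -2.01, SE 0.04, adjusted p = 3.66e-40), and the WT libraries of the regions did not overlap, with cortex at 33.7 to 37.3 CPM and cerebellum at 145 to 161. H2-Ab1 was also lower in cortex (-0.65, SE 0.22, adjusted p = 0.00887). B2m (0.17, SE 0.05, adjusted p = 0.00364) and Psmb8 (0.53, SE 0.22, adjusted p = 0.0311) were higher in cortex; the Psmb8 call was lost without the filter on low counts (adjusted p = 0.0663). The other 6 genes, H2-K1 among them (-0.08, SE 0.08, adjusted p = 0.362), did not pass, so their order between the brain regions is not resolved.

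**Figure D1:**
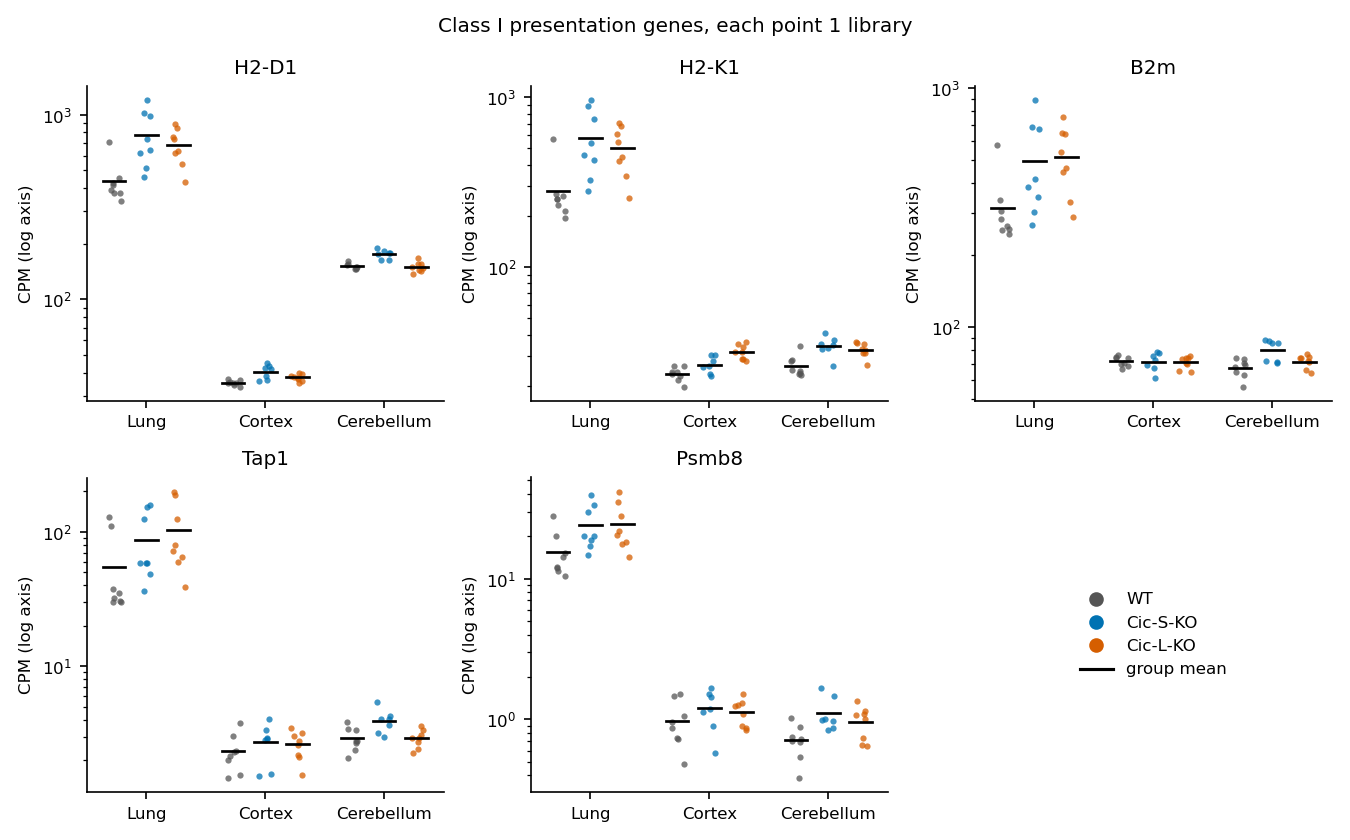
Level of the class I pathway genes H2-D1, H2-K1, B2m, Tap1 and Psmb8 in every library, in TMM-scaled CPM on log axes, by tissue and genotype; points are libraries and black bars are group means. The spread within a genotype is wide in lung, where 1 WT library reaches 707 CPM of H2-D1 against 339 to 452 in the other 7, and narrow in cerebellum, where all 7 Cic-S-KO libraries of H2-D1 lie above the highest WT library.

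In lung, the class I heavy chains were higher without the short isoform. H2-D1 ranged from 339 to 707 CPM in WT (median 403), from 459 to 1195 in Cic-S-KO (median 689) and from 431 to 884 in Cic-L-KO (median 689). Of the 8 libraries of each knockout, 4 lay above the highest WT library and the rest overlapped WT. H2-K1 ranged from 195 to 570 CPM in WT (median 253), from 280 to 959 in Cic-S-KO (median 497) and from 253 to 709 in Cic-L-KO (median 492), with 3 of 8 libraries of each knockout above all WT libraries. Both genes rose in Cic-S-KO (H2-D1 log2 fold change 0.82, SE 0.20, edgeR adjusted p = 0.00723, and H2-K1 1.04, SE 0.28, adjusted p = 0.0153). They were the 2 of 10 genes called there, on a background of 15.7% of the 16695 genes tested, so the share is near the background.

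No gene of the 10 passed in Cic-L-KO lung, where the background was 4.89%. H2-D1 was at 0.65 (SE 0.20, adjusted p = 0.0609) and H2-K1 at 0.83 (SE 0.28, adjusted p = 0.0905), close to their Cic-S-KO values. At an unadjusted p under 0.05 there were 5 genes in edgeR's test. Tap1, the last of these, ranked 3306 of 16695 genes by p, so many genes pass that mark. DESeq2 called 1, H2-D1, on a background of 7.68%. Cic-S-KO against Cic-L-KO gave 0 calls in edgeR (background 12.2%) and in DESeq2 (background 12.4%) and 0 genes at an unadjusted p under 0.05. The difference for H2-D1 was 0.18 (SE 0.20) and for H2-K1 0.21 (SE 0.28).

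The supporting class I genes had the same sign and did not pass. B2m, the common light chain, stood at 0.65 (SE 0.26, adjusted p = 0.0901) in Cic-S-KO and 0.70 (SE 0.26, adjusted p = 0.124) in Cic-L-KO, Tap1 at 0.68 (SE 0.43) and 0.92 (SE 0.44), and Psmb8 at 0.65 (SE 0.26) and 0.67 (SE 0.26). Class II differences were smaller: H2-Aa stood at 0.16 and 0.08, H2-Ab1 at 0.35 and 0.21, H2-Eb1 at 0.27 and 0.06, Cd74 at 0.22 and 0.09 and Ciita at 0.20 and 0.25, none of them called. All 10 log2 fold changes were positive in both knockouts, with a median of 0.50 without the short isoform and of 0.45 without the long one, beside 0.00 over all genes; both comparisons use the same WT libraries.

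The count in lung depended on 1 control library. Without WT replicate 3, which had the highest WT level of each of the 10 genes, 4 genes were called in Cic-S-KO (background 15.2%): H2-D1 (0.96, adjusted p = 0.00188), H2-K1 (1.27, adjusted p = 0.00284), B2m (0.83, adjusted p = 0.0275) and Psmb8 (0.82, adjusted p = 0.0268). In Cic-L-KO 3 were then called (background 4.73%): H2-D1 (0.78, adjusted p = 0.0208), H2-K1 (1.06, adjusted p = 0.0234) and B2m (0.88, adjusted p = 0.0457). Leaving out Cic-L-KO replicate 8, Cic-S-KO replicate 4 or Cic-S-KO replicate 7 brought 1 call in Cic-L-KO, H2-D1. Of the class II genes, Cd74 passed in Cic-S-KO when replicate 7 of that group was left out (0.29, adjusted p = 0.0293).

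Single libraries stood out in lung across most of the 10 genes at once. WT replicate 3 was the highest WT library in all 10, Cic-L-KO replicate 6 was the highest of its group in 9, and the 3 highest libraries of Cic-S-KO were replicates 4, 5 and 6 for H2-D1, H2-K1 and B2m. The summed level of the interferon response genes was high in some of these libraries and not only in these: it was 1457 CPM in WT replicate 3 and 1506 in WT replicate 5, with the other WT libraries between 868 and 1009, it was 1883, 1613 and 1890 in Cic-S-KO replicates 4, 5 and 6, with the others between 966 and 1132, and it was 2455 and 1991 in Cic-L-KO replicates 3 and 6, with 1445 in replicate 2, which was among the 3 highest of its group in all 10 genes, and 968 to 1235 in the others. WT replicate 3 had 707 CPM of H2-D1 and WT replicate 5 had 391, beside a WT median of 403. Of 26 interferon response genes tested, 5 rose in Cic-S-KO lung, near the background of 15.7%, led by Oas1a (1.33), Ifit3 (0.87) and Irf8 (0.45), and 1 in Cic-L-KO, near the background of 4.89%, Ifit3 (1.02, SE 0.26, adjusted p = 0.0265). Of the 26, 25 had a positive log2 fold change in Cic-S-KO (median 0.47) and 24 in Cic-L-KO (median 0.58). The medians over all genes were -0.001 and -0.0009. The part of the interferon response genes in the class I values was not tested.

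Markers of macrophages and B cells rose in Cic-S-KO lung beside the heavy chains, against 15.7% of all genes called there and 4.89% in Cic-L-KO. Of 15 macrophage markers tested, 11 rose in Cic-S-KO, led by Itgam (1.18), Aif1 (1.17) and C1qb (1.16), and 5 in Cic-L-KO, led by C1qa (0.62), C1qc (0.61) and C1qb (0.57); their summed level was 344 to 437 CPM in WT, 493 to 739 in Cic-S-KO and 424 to 507 in Cic-L-KO, and no listed marker was at 0 in all libraries. Of 7 B cell markers 5 rose in Cic-S-KO, led by Cd22 (0.85), Cd79a (0.78) and Ighm (0.73), and 0 in Cic-L-KO; their sum was 54.3 to 99.9 CPM in WT, 107 to 154 in Cic-S-KO and 52.6 to 146 in Cic-L-KO. Of 7 dendritic cell markers 2 rose in Cic-S-KO, Xcr1 (1.24) and Itgax (0.86), and Cd209a fell (-1.16), with sums of 80.6 to 96.9 CPM in WT and 83.3 to 117 in Cic-S-KO. Of 9 T and NK cell markers, Gzma (1.72) and Klrb1c (1.02) rose in Cic-S-KO and Gzma (1.63) in Cic-L-KO. Of 6 endothelial markers 2 fell in Cic-S-KO, Emcn (-0.30) and Cdh5 (-0.24), and 0 passed in Cic-L-KO, with sums of 2899 to 3676 CPM in WT, 2514 to 3452 in Cic-S-KO and 2868 to 3947 in Cic-L-KO. The part of these cells in the H2-D1 and H2-K1 results was not tested.

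Other genes of the pathway were called in lung at a share near the background of 15.7% for class I. Of 21 further class I pathway genes tested, 4 rose in Cic-S-KO: the heavy chains H2-Q6 (1.87) and H2-Q7 (1.62), the proteasome activator Psme2 (0.35) and the neonatal Fc receptor chain Fcgrt. Only Fcgrt rose in Cic-L-KO (0.27, SE 0.05, adjusted p = 0.00361), near the background of 4.89%. Of 16 further class II pathway genes, 5 rose in Cic-S-KO, led by the protease Ctss (1.06), which trims the invariant chain, and the costimulators Cd86 (0.67) and Cd80 (0.66), and 2 in Cic-L-KO, Cd40 (0.26) and Lgmn (0.22). Both class II shares were above the backgrounds of 15.7% and 4.89%. The lists were chosen with earlier results of these data known, so these shares are a description.

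**Figure D2:**
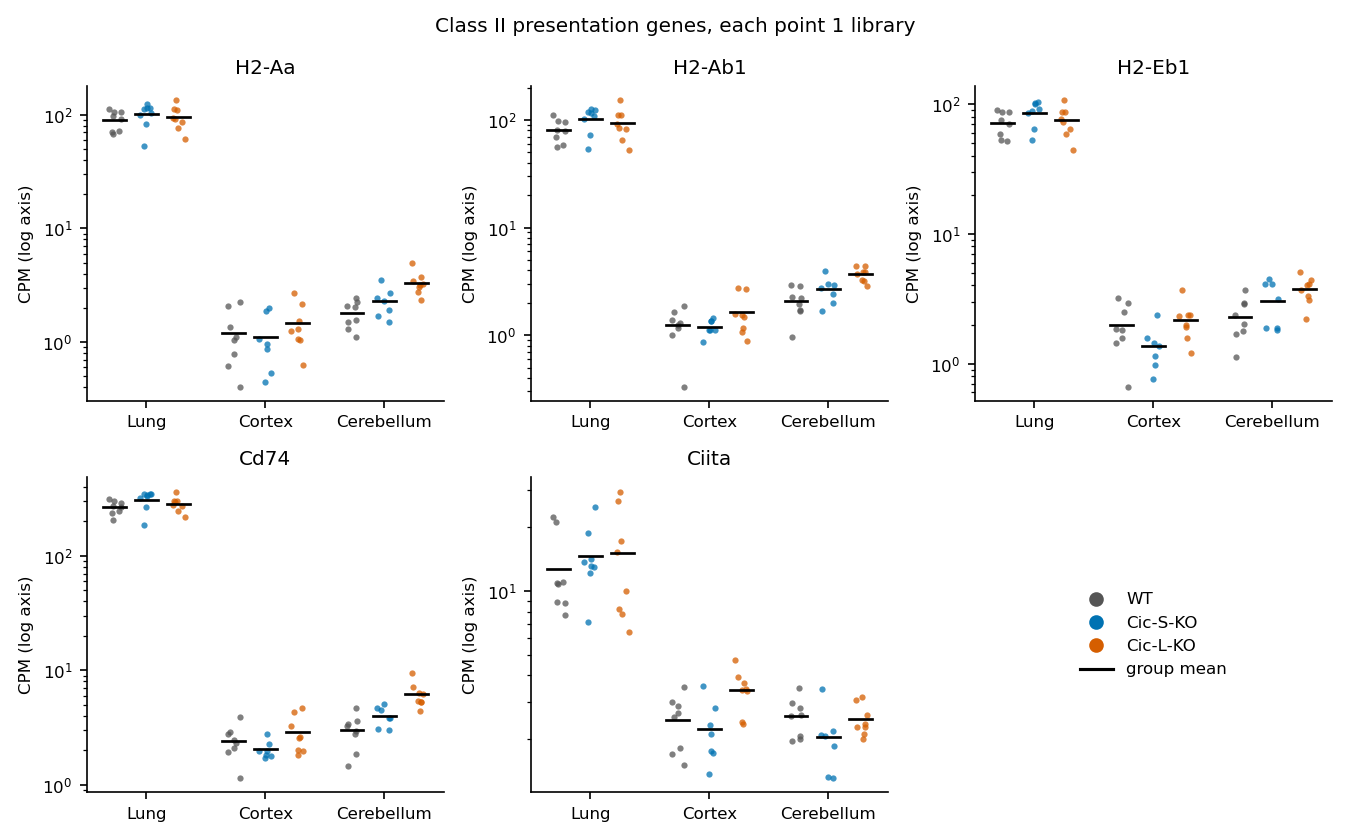
Level of the class II genes H2-Aa, H2-Ab1, H2-Eb1, Cd74 and Ciita in every library, in TMM-scaled CPM on log axes, by tissue and genotype; points are libraries and black bars are group means. In cerebellum 7 of 8 Cic-L-KO libraries of Cd74, H2-Aa and H2-Ab1 lie above the highest WT library. In lung and cortex the ranges of the genotypes overlap. In lung 6 of 8 Cic-S-KO libraries of Cd74 lie above the highest WT library and 1 lies below the lowest. For each of H2-Aa, H2-Ab1 and H2-Eb1, 4 of 8 Cic-S-KO lung libraries lie above the highest WT library.

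In cortex, H2-K1 rose without the long isoform and H2-D1 without the short one. H2-K1 ranged from 19.7 to 26.1 CPM in WT (median 23.7), from 22.7 to 30.2 in Cic-S-KO (median 26.0) and from 28.1 to 36.0 in Cic-L-KO (median 31.5). All 8 Cic-L-KO libraries lay above the highest WT library, and 5 of the 7 Cic-S-KO libraries lay below the lowest Cic-L-KO library. The rise in Cic-L-KO was 0.44 (SE 0.07, edgeR adjusted p = 4.72e-06); Cic-S-KO stood at 0.18 (SE 0.07, adjusted p = 0.11) and was lower than Cic-L-KO (-0.25, SE 0.07, adjusted p = 0.00473).

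H2-D1 ranged from 33.7 to 37.3 CPM in WT cortex (median 35.3), from 36.1 to 45.0 in Cic-S-KO (median 42.1) and from 35.3 to 40.1 in Cic-L-KO (median 37.8). In each knockout 5 libraries lay above all WT libraries. The rise in Cic-S-KO, 0.20 (SE 0.05, adjusted p = 0.0109), passed; Cic-L-KO stood at 0.10 (SE 0.04, adjusted p = 0.0824), and the knockouts were not told apart (0.10, SE 0.05, adjusted p = 0.0831).

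Ciita ranged from 1.51 to 3.55 CPM in WT cortex (median 2.59), from 1.38 to 3.56 in Cic-S-KO (median 2.12) and from 2.36 to 4.71 in Cic-L-KO (median 3.45). It rose in Cic-L-KO (0.47, SE 0.18, adjusted p = 0.0388), with 3 of 8 libraries above all WT, and the Cic-S-KO level was below the Cic-L-KO level (-0.60, SE 0.19, adjusted p = 0.0155). The rise over WT did not pass without any 1 of 8 libraries (Cic-L-KO replicates 1, 2, 3, 5 and 6 and WT replicates 1, 2 and 8, adjusted p up to 0.0975) or with GC content removed (adjusted p = 0.0687). The genes that Ciita switches on did not pass in Cic-L-KO cortex: H2-Aa stood at 0.29 (SE 0.34), H2-Ab1 at 0.40 (SE 0.24), H2-Eb1 at 0.13 (SE 0.25) and Cd74 at 0.26 (SE 0.20).

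Set against all genes, the counts in cortex were near or below the background. In Cic-L-KO cortex 2 of the 10 genes were called, on a background of 43.2% of the 16974 genes tested, in Cic-S-KO 1, on a background of 6.53%, and between the knockouts 2, on a background of 33.9%. Between the knockouts H2-Eb1 (-0.65, SE 0.27, adjusted p = 0.0622) and Cd74 (-0.51, SE 0.21, adjusted p = 0.0644) lay near the threshold, and both passed without Cic-L-KO replicate 3 or WT replicate 6, which gave 4 calls. H2-Eb1 passed also without Cic-L-KO replicate 4 or Cic-S-KO replicate 2, Cd74 also without Cic-L-KO replicate 7 or 8, Cic-S-KO replicate 1 or WT replicate 1, and H2-D1 without Cic-S-KO replicate 3 or 5 (adjusted p up to 0.0494 over the 3 genes). B2m was not called in cortex: it ranged from 66.6 to 76.9 CPM in WT, from 61.2 to 78.5 in Cic-S-KO and from 65.0 to 75.5 in Cic-L-KO, with differences of 0.00 (SE 0.05) and -0.02 (SE 0.05). Tap1 (0.24 and 0.17) and Psmb8 (0.29 and 0.21) were not called in either knockout.

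Over all genes, 6.53% were called in Cic-S-KO cortex and 43.2% in Cic-L-KO cortex. Among 21 further class I genes of cortex, 4 rose in Cic-S-KO, led by H2-Q7 (1.22), H2-Q6 (1.09) and H2-Q4 (0.53). In Cic-L-KO 6 rose, led by H2-Q6 (1.31), H2-Q7 (1.27) and the lipid-presenting Cd1d1 (0.85), and 6 fell, among them the nonclassical heavy chains H2-T23 (-0.56, SE 0.09, adjusted p = 2.20e-05) and H2-T22 (-0.31, SE 0.06, adjusted p = 5.84e-05). H2-T23, which was chosen after its values were seen, was at 19.8 ± 2.51 CPM in WT cortex and 13.5 ± 1.69 in Cic-L-KO cortex (n = 8 each). Of 14 further class II genes 1 rose in Cic-S-KO, H2-DMa (0.34), which exchanges peptides on class II; in Cic-L-KO 5 rose, led by Cd40 (1.10) and by Rfx5 (0.43) and Rfxank (0.32), both subunits of the factor that binds class II promoters, and Ctsl fell (-0.21), a share near the background. Of 15 macrophage and microglia markers 0 passed in Cic-S-KO in edgeR's test; in Cic-L-KO 4 rose, led by C1qa (0.27) and Cd68 (0.27), and Cd163 fell (-0.46), with sums of 404 to 520 CPM in WT and 449 to 519 in Cic-L-KO; this share was below the background. Endothelial markers rose in 3 of 6 in Cic-L-KO, Cldn5 (0.53), Tie1 (0.37) and Flt1 (0.28), with sums of 121 to 171 CPM in WT and 149 to 185 in Cic-L-KO, again near the background. The part of these cells in the H2-K1 result was not tested.

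In cerebellum, class I genes rose without the short isoform, and class II genes and H2-K1 rose without the long one. Cd74 ranged from 1.46 to 4.70 CPM in WT (median 3.10), from 3.04 to 5.07 in Cic-S-KO (median 3.83) and from 4.46 to 9.56 in Cic-L-KO (median 5.81). Of 8 Cic-L-KO libraries 7 lay above the highest WT library, whereas 1 of 7 Cic-S-KO libraries did. The rise in Cic-L-KO was 1.05 (SE 0.18, edgeR adjusted p = 0.000198), Cic-S-KO stood at 0.42 (SE 0.19, adjusted p = 0.179), and Cic-S-KO was lower than Cic-L-KO (-0.63, SE 0.19, adjusted p = 0.024), a difference that did not pass without Cic-L-KO replicate 5, Cic-S-KO replicate 1 or Cic-S-KO replicate 3 (adjusted p up to 0.0616) or without the filter on low counts (adjusted p = 0.0711).

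The class II chains that Cd74 escorts rose with it in Cic-L-KO cerebellum. H2-Aa ranged from 1.12 to 2.47 CPM in WT (median 1.80) and from 2.33 to 4.96 in Cic-L-KO (median 3.19), a change of 0.90 (SE 0.18, adjusted p = 0.000807). H2-Ab1 went from 0.952 to 2.93 CPM in WT (median 2.08) to 2.83 to 4.39 in Cic-L-KO (median 3.77), a change of 0.83 (SE 0.18, adjusted p = 0.00143). H2-Eb1 went from 1.12 to 3.67 CPM in WT (median 2.19) to 2.20 to 5.05 in Cic-L-KO (median 3.89), a change of 0.70 (SE 0.23, adjusted p = 0.0281). The H2-Eb1 call was lost without Cic-L-KO replicate 5 or WT replicate 4, 6 or 8 (adjusted p up to 0.0593) and without the filter on low counts (adjusted p = 0.0900). For H2-Aa and H2-Ab1 7 of 8 Cic-L-KO libraries lay above all WT libraries, and for H2-Eb1 5 of 8. Ciita, which controls these genes, was not called, at 1.96 to 3.48 CPM in WT and 2.01 to 3.16 in Cic-L-KO (-0.04, SE 0.17, adjusted p = 0.892). In Cic-S-KO cerebellum H2-Aa (0.37, SE 0.19), H2-Ab1 (0.38, SE 0.19) and H2-Eb1 (0.41, SE 0.24) did not pass, and for none of these 3 did the knockouts differ at the threshold (H2-Aa -0.53, SE 0.19, adjusted p = 0.0602).

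H2-D1 ranged from 145 to 161 CPM in WT cerebellum (median 149), from 163 to 189 in Cic-S-KO (median 178) and from 137 to 167 in Cic-L-KO (median 150). All 7 Cic-S-KO libraries lay above the highest WT library, and 5 of them above the highest Cic-L-KO library. It rose in Cic-S-KO (0.22, SE 0.04, adjusted p = 0.00106), stood at -0.01 in Cic-L-KO (SE 0.04, not called, adjusted p = 0.879), and the knockouts differed (0.23, SE 0.04, adjusted p = 0.000166). H2-K1 took another course and rose in both knockouts, from 23.1 to 34.2 CPM in WT (median 24.6) to 26.0 to 41.0 in Cic-S-KO (0.39, SE 0.09, adjusted p = 0.00657) and 26.5 to 36.3 in Cic-L-KO (0.32, SE 0.08, adjusted p = 0.00794).

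B2m rose with the heavy chains in Cic-S-KO cerebellum, from 56.5 to 74.6 CPM in WT (median 69.0) to 70.6 to 88.3 (median 86.0), a change of 0.25 (SE 0.06, adjusted p = 0.0116). In Cic-L-KO it stood at 0.09 (SE 0.06, adjusted p = 0.319). Tap1 ranged from 2.07 to 3.85 CPM in WT, from 3.0 to 5.42 in Cic-S-KO and from 2.29 to 3.61 in Cic-L-KO. It rose in Cic-S-KO over WT (0.44, SE 0.14, adjusted p = 0.045) and over Cic-L-KO (0.44, SE 0.14, adjusted p = 0.0361), but in fits that left out 1 library the calls were lost in 12 and 9 of 23, with an adjusted p of up to 0.130 and 0.114. Among the other settings tried, the rise over WT was lost in 5 of 10 (adjusted p up to 0.0706) and that over Cic-L-KO in 1 (adjusted p = 0.0624). Psmb8 stood at 0.64 (SE 0.22, adjusted p = 0.0631) in Cic-S-KO and 0.43 (SE 0.21, adjusted p = 0.152) in Cic-L-KO.

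The counts in cerebellum were above the background: 4 of the 10 genes were called in Cic-S-KO, on a background of 8.23% of the 16643 genes tested, 5 in Cic-L-KO, on a background of 21.5%, and 3 between the knockouts, on a background of 12.4%. With a replicate block the count in Cic-S-KO was 2, on a background of 3.55%. The 10 genes were chosen with earlier results of these data known and are not independent of each other, so these counts are a description. Median log2 fold changes were 0.39 and 0.37 for the 10 genes beside 0.01 and 0.00 over all genes.

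Markers of the cells that make class II were set beside the background of 21.5% in Cic-L-KO cerebellum. Of 15 macrophage and microglia markers 3 rose, a share near the background: Mrc1 (0.44), Tyrobp (0.43) and Csf1r (0.23). Their sums were 145 to 198 CPM in WT, 153 to 215 in Cic-S-KO and 170 to 205 in Cic-L-KO. Of the 15, 14 had a positive log2 fold change in each knockout. The median was 0.17 in Cic-L-KO and 0.19 in Cic-S-KO, beside 0.004 and 0.005 over all genes. Of 3 dendritic cell markers tested, out of 9 listed, 0 rose and 1 fell, Zbtb46 (-0.26), with sums of 107 to 137 CPM in WT and 108 to 132 in Cic-L-KO. This sum had a mean of 129 CPM in WT cerebellum and 89.7 in WT lung, where the class II genes were far higher. It therefore cannot be read as a level of dendritic cells in cerebellum. Endothelial markers rose in 5 of 6, led by Cldn5 (0.68), Cdh5 (0.64) and Flt1 (0.55), with sums of 98.0 to 127 CPM in WT, 90.8 to 149 in Cic-S-KO and 149 to 178 in Cic-L-KO; no Cic-L-KO library overlapped WT. Of 2 B cell markers tested 0 passed, and B cell marker sums were 2.65 to 9.29 CPM in WT and 3.43 to 13.6 in Cic-L-KO. In Cic-S-KO cerebellum 0 macrophage and 0 endothelial markers passed in edgeR's test. The part of these cells in the Cd74, H2-Aa, H2-Ab1 and H2-Eb1 results was not tested.

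Of all genes tested in cerebellum, 8.23% were called without the short isoform and 21.5% without the long one. Among the further class I genes of cerebellum 5 of 21 rose in Cic-S-KO, led by H2-Q6 (1.28), H2-Q7 (1.09) and H2-T23 (0.30), and 7 in Cic-L-KO, led by H2-Q6 (1.13), H2-Q7 (1.08) and H2-T23 (0.44). Both shares were above the background. Without the long isoform H2-T23 was called in opposite directions in cerebellum and cortex. Of 13 further class II genes, Lgmn rose (0.22) in Cic-L-KO and Rfxap, a subunit of the class II promoter factor, fell in both knockouts (Cic-S-KO -0.15, Cic-L-KO -0.18). Of 26 interferon response genes 1 rose in each knockout, Gbp2 (0.52) in Cic-S-KO and Irf8 (0.37) in Cic-L-KO. In each knockout this share was below the background. Of the 26, 23 had a positive log2 fold change in Cic-S-KO (median 0.235) and 19 in Cic-L-KO (median 0.198). The medians over all genes were 0.005 and 0.004. The part of the interferon response genes in the class I values of cerebellum was not tested.

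**Figure D3:**
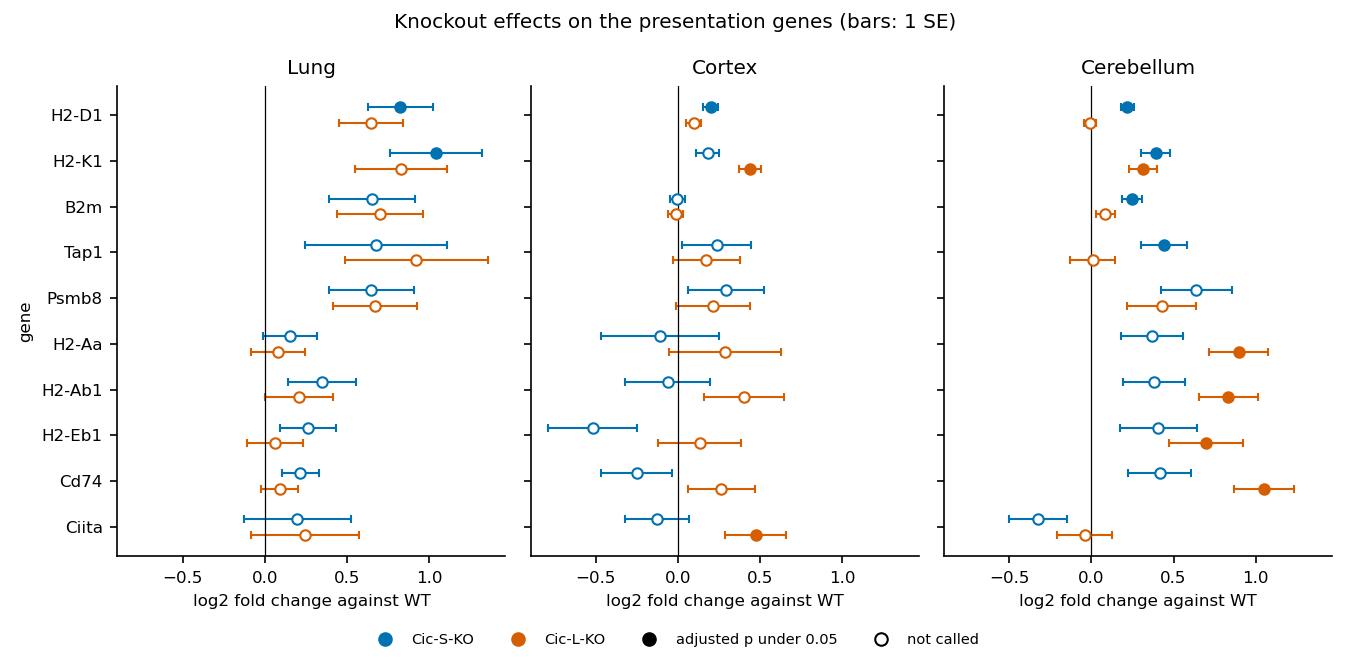
Log2 fold change of each of the 10 genes against WT, by tissue and knockout; bars are 1 SE of the fit and filled points have an edgeR adjusted p under 0.05. In cerebellum the filled Cic-S-KO points are the class I genes H2-D1, H2-K1, B2m and Tap1 and the filled Cic-L-KO points are H2-K1, H2-Aa, H2-Ab1, H2-Eb1 and Cd74.

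Whether a knockout acted differently between tissues was tested directly as an interaction, with the knockout effect in 1 tissue minus that in another. These fits and the test of the WT brain regions treat cortex and cerebellum libraries as independent. The labels do not say whether both regions came from the same mice. In edgeR with the settings of the other fits, Cd74 was the only 1 of the 10 genes with a called interaction, in both comparisons of the Cic-L-KO effect that involve cerebellum. Its Cic-L-KO effect was 0.79 smaller in cortex than in cerebellum (log2 difference -0.79, SE 0.28, edgeR adjusted p = 0.0371, on a background of 23.0% of 18032 genes), a call lost without the filter on low counts (adjusted p = 0.0967), and 0.98 smaller in lung than in cerebellum (-0.98, SE 0.22, adjusted p = 0.00509, on a background of 4.96% of 18956 genes). Lung and cortex were not told apart for Cd74 (-0.19, SE 0.24, adjusted p = 0.649). H2-Aa had differences of -0.61 (SE 0.38, adjusted p = 0.264) and -0.83 (SE 0.26, adjusted p = 0.0532), which did not pass. H2-D1 had the opposite sign in lung against cerebellum (0.64, SE 0.20, adjusted p = 0.0531). With DESeq2, with a mean of at least 50 counts and with a non-robust fit both H2-D1 and H2-Aa passed in that comparison (adjusted p up to 0.0455 and 0.0473). Between lung and cortex the Cic-L-KO effect gave 0 calls among the 10 genes in edgeR, against a background of 19.3% of 19186 genes. At an unadjusted p under 0.05 there were 2 genes, the last of which, H2-D1, ranked 4005 of 19186 by p. DESeq2 called 2, on a background of 21.2%.

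The Cic-S-KO effect on H2-D1 was of like size in cortex and cerebellum (difference -0.02, SE 0.06, adjusted p = 0.885), although the levels differ by region. Between these regions 0 of the 10 genes were called in edgeR, on a background of 4.50%, and B2m came nearest (-0.25, SE 0.08, adjusted p = 0.0531). At an unadjusted p under 0.05 there were 3, the last of which, Cd74, ranked 2713 of 18032 by p. DESeq2 called 1, on a background of 8.6%. Against cortex (background 7.32%) and against cerebellum (background 7.10%), the Cic-S-KO effect of lung also gave 0 calls in edgeR. At an unadjusted p under 0.05 there were 4 and 2 genes. The last of these by p ranked 3548 of 19186 (H2-Eb1) and 3901 of 18956 (H2-K1). DESeq2 called 2 and 1, on backgrounds of 13% and 11%. H2-D1 had differences of 0.62 (SE 0.21, adjusted p = 0.0626) and 0.59 (SE 0.21, adjusted p = 0.071), so a larger effect in lung was not resolved. These comparisons share WT and knockout libraries.

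Across the tissues, 3 heavy chain genes rose in Cic-S-KO everywhere: H2-D1 and, from outside the 10 genes, H2-Q6 and H2-Q7. The last pair encode nonclassical class I chains and are near copies of each other, identical at 95.4% of aligned coding positions. H2-Q6 was at 18.9 ± 20.7 CPM in WT lung and 68.7 ± 53.2 in Cic-S-KO lung, at 0.611 ± 0.194 and 1.31 ± 0.45 in cortex (WT n = 8, Cic-S-KO n = 7), and at 0.860 ± 0.327 and 2.08 ± 0.77 in cerebellum. In Cic-L-KO its means were 67.2, 1.51 and 1.89 CPM. Libraries of Cic-S-KO above the highest WT library numbered 3 of 8 in lung, 6 of 7 in cortex and 5 of 7 in cerebellum, and those of Cic-L-KO 3, 7 and 6 of 8.

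H2-Q6 rose in Cic-S-KO by 1.87 (SE 0.62, adjusted p = 0.0438) in lung, 1.09 (SE 0.25, adjusted p = 0.0104) in cortex and 1.28 (SE 0.25, adjusted p = 0.0022) in cerebellum. In Cic-L-KO the lung value of 1.83 (SE 0.62, adjusted p = 0.0908) did not pass, and those of cortex (1.31, SE 0.24, adjusted p = 5.92e-05) and cerebellum (1.13, SE 0.24, adjusted p = 0.00125) did. H2-Q7 rose by 1.62 (adjusted p = 0.049), 1.22 (adjusted p = 0.0207) and 1.09 (adjusted p = 0.0137) in Cic-S-KO of the same tissues. In lung the H2-Q6 call was lost in 13 and the H2-Q7 call in 18 of 24 fits that left out 1 library (adjusted p up to 0.0875 and 0.101) and in 3 and 4 of 9 other settings (up to 0.0818 and 0.0943), while without WT replicate 3 the values were 2.55 and 2.13 in Cic-S-KO and 2.51 and 2.14 in Cic-L-KO, all past the threshold. In cortex H2-Q7 did not pass in Cic-S-KO without Cic-S-KO replicate 7 (adjusted p = 0.0626). In brain the changes started from low levels, and reads shared between the pair and with the other heavy chains cannot be assigned.

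**Figure D4:**
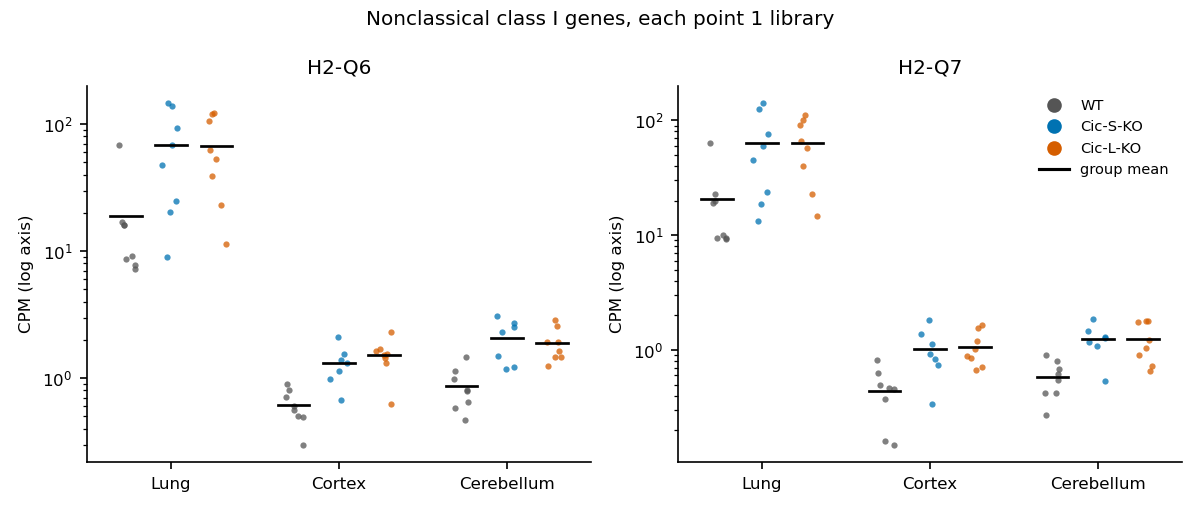
Level of H2-Q6 and H2-Q7 in every library, in TMM-scaled CPM on log axes, by tissue and genotype; points are libraries and black bars are group means. In cortex 6 of 7 Cic-S-KO libraries and 7 of 8 Cic-L-KO libraries of H2-Q6 lie above the highest WT library.

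Since 7 of the 10 genes lie in the MHC region, all tested genes of the region were counted, with these 7, H2-Q6 and H2-Q7 among them. The shares of the region are therefore in part the results above counted again. Between the first and the last gene named H2- on chromosome 17 (33974659 to 37483552), 19 of 118 genes tested were called in Cic-S-KO cortex, 18 of them higher, which is 16.1% beside 4.12% in the flanks of 5 Mb and the 6.53% of all genes. The corresponding shares were 12.3%, 9.18% and 8.23% in Cic-S-KO cerebellum and 16.0%, 16.8% and 15.7% in Cic-S-KO lung. Without the long isoform they were 39.8%, 39.2% and 43.2% in cortex, 18.4%, 24.5% and 21.5% in cerebellum and 5.34%, 2.11% and 4.89% in lung. In Cic-S-KO cortex the genes of the region and its flanks with the smallest p were Col11a2 (0.42, SE 0.09), H2-DMa (0.34, SE 0.07) and Ddr1 (0.31, SE 0.07), and in Cic-S-KO cerebellum they were H2-D1, H2-Q6 and Gabbr1 (0.19, SE 0.04). With flanks of 1 and 10 Mb the flank share was 6.25% and 1.28% in Cic-L-KO lung, so that its order against the region turned with the window, and 5.26% and 6.41% in Cic-S-KO cerebellum. At 1 Mb it was 9.38% in lung of the Cic-S-KO group. Neighbouring genes are not independent, and no test was made of these shares.

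Within a genotype, the 10 genes varied together in lung and in smaller sets in brain. After each genotype's mean was removed, log2 CPM of H2-D1 correlated with H2-K1 at r = 0.99, with B2m at 0.96, with Psmb8 at 0.86 and with Tap1 at 0.80 over the 24 lung libraries, and Cd74 correlated with H2-Aa at 0.96, H2-Ab1 at 0.94 and H2-Eb1 at 0.92. Cd74 and H2-D1 were less close, at 0.68. In cortex, over 23 libraries, H2-D1 correlated with H2-K1 at 0.75 and with B2m at 0.69, and Cd74 with H2-Ab1 at 0.89, while Ciita and H2-D1 were at -0.24. In cerebellum, over 23 libraries, H2-D1 and H2-K1 were at -0.03. The points share library, depth and, for the heavy chains, sequence, so these values are descriptions.

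Of all other genes tested, those closest to H2-D1 in lung were heavy chains, H2-Q4 (r = 0.96), H2-T22 (0.95), H2-Q6 (0.94), H2-Q7 (0.94) and H2-Q5 (0.89), and those closest to Cd74 were H2-DMb1 (0.92), Apol7c (0.85), Lsp1 (0.85), H2-DMa (0.82) and Rln3 (0.79). In cortex H2-D1 ran with 3110099E03Rik (0.81), Cyp2d22 (0.77), Hist1h1c (0.74), Dhrs7 (0.73) and Mpeg1 (0.73), and Cd74 with Crabp2 (0.88), Slc13a3 (0.87), Smo (0.86), Cd63 (0.85) and Gfap (0.84). In cerebellum the nearest to H2-D1 were Man2a2 (0.84), Nos1 (0.82), Dlg4 (0.82), Plxdc1 (0.82) and Mink1 (0.81), and to Cd74 Fscn1 (0.79), Gm42495 (0.77), Wdr91 (0.76), AI849053 (0.75) and Zfp651 (0.75). No H2 gene was among these in brain.

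**Figure D5:**
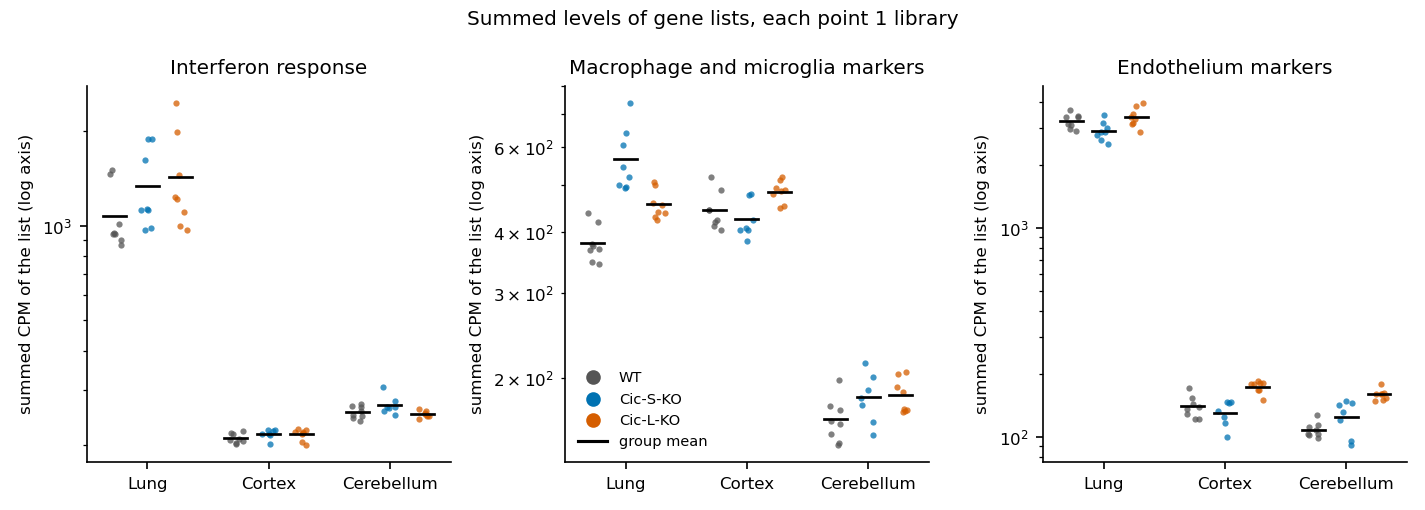
Summed level of the interferon response list and of marker lists in every library, in TMM-scaled CPM on log axes, by tissue and genotype; points are libraries and black bars are group means. Macrophage marker sums of the Cic-S-KO lung libraries (493 to 739 CPM) lie above those of WT (344 to 437 CPM), and in cerebellum the endothelial sums of Cic-L-KO (149 to 178 CPM) lie above those of WT (98.0 to 127 CPM).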

How the data were processed

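RNA from flash-frozen mouse lung, cortex and cerebellum was sequenced after polyA selection, per the labels' protocols. Reads were aligned to GRCm38.p6 with STAR 2.7, per the submitters' processing notes; the counting program and its strand setting are not given in the sources used here. The deposited table holds raw counts, whole numbers per gene and sample, with no normalization by the authors. Of its 50789 Ensembl identifiers, 50725 matched GENCODE vM21 when the version was ignored. Some genes of the lists were not analysed here. Depth was 17798655 to 35523037 counts per sample, which limits the precision of genes near 1 CPM; of 238 replicate pairs 0 were identical.

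Each tissue was fitted on its own with all 3 genotypes: edgeR 4.0.16 (R 4.3.3), filterByExpr, TMM, robust quasi-likelihood test, Benjamini-Hochberg adjustment over all genes tested, threshold 0.05. SE is the log2 fold change divided by the square root of F. Interactions were fitted on pairs of tissues. CPM (counts scaled to library size) use TMM within a tissue, and correlations use log2 CPM with a prior count of 2. DESeq2 1.42.0, RLE size factors, other filters, a non-robust fit, a covariate for Y-linked counts, removal of GC content, a replicate block, fits of 2 genotypes and leaving out each library were tried. The fits were tested on simulated data.

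The 10 genes, the gene lists and the rules were chosen with earlier results of these data known. All 10 genes are named; of the other lists, the 3 largest changes among those called per comparison; for H2-D1 and Cd74, the 5 genes of highest r per tissue; genes named H2- called alike in all 3 tissues; and the 3 genes of smallest p in the MHC region and its 5 Mb flanks. Genes named beyond these were chosen after their values were seen. Promoter sequences are from RefSeq (7 of the 10 genes matched), identities from a global alignment in Biopython 1.88. Tissue labels were checked against marker lists: lung epithelium markers summed to between 19792 and 28902 CPM in lung and between 17.2 and 122 CPM in brain, cortex neuron markers to a median of 1956 CPM in WT cortex, 689 in WT cerebellum and 5.57 in WT lung, and cerebellum neuron markers to 4614 CPM in WT cerebellum, 204 in WT cortex and 0.668 in WT lung.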

Additional observations from a re-analysis of the deposited data

Results flagged for a closer look

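Of 90 sets of libraries, 1 per gene and group, 6 had a highest library set far apart from the others of its group; chance gives about 1 in 20. Replicate 3 of WT lung accounted for 3 of the 6: it had 707 CPM of H2-D1 where the next WT library had 452, 570 CPM of H2-K1 where the next had 269, and 576 CPM of B2m where the next had 339. Its interferon response sum was 1457 CPM. That of WT replicate 5 was 1506 CPM, with 391 CPM of H2-D1 beside a WT median of 403. The part of this response in the H2-D1, H2-K1 and B2m values was not tested.

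In brain the libraries that stood apart were replicate 1 of WT cerebellum for H2-K1 (34.2 CPM, next 28.2), replicate 1 of Cic-S-KO cerebellum for Ciita (3.47 CPM, next 2.18) and replicate 5 of Cic-L-KO cortex for H2-Eb1 (3.71 CPM, next 2.37).

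A knockout effect that differed between tissues was found for Cd74, by edgeR's test of the interaction. The Cic-L-KO effect on Cd74 was lower by 0.79 (log2 difference -0.79) in cortex than in cerebellum and lower by 0.98 (-0.98) in lung than in cerebellum; in the second comparison age and batch cannot be told apart from tissue.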

How the results depend on the processing

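No called change of sign occurred in any of the settings run. Over H2-Q6, H2-Q7 and the 10 genes, 287 of 349 single-gene values kept their side of the threshold under other settings, 24 fell below it and 38 rose past it; with 1 library left out, 603 of 702 kept it. Among values called in neither fit, 11 of 970 had the other sign. The number of the 10 genes called in Cic-L-KO lung was 1 with DESeq2, with a mean of at least 50 counts, with a non-robust fit and with only the 2 genotypes compared, against 0. In Cic-L-KO cortex it was 1 with GC content removed. Between the knockouts in cortex it was 4 with only the 2 genotypes compared. For the Cic-S-KO effect in cortex against cerebellum it was 1 with RLE size factors and with DESeq2, and for the Cic-L-KO effect 0 without the filter on low counts. For lung against cortex it was 2 (Cic-L-KO, with RLE size factors, DESeq2, a mean of at least 50 counts or a non-robust fit), 2 (Cic-S-KO, DESeq2) and 1 (Cic-S-KO, mean of at least 50 counts). For lung against cerebellum it was 1 (Cic-S-KO, with DESeq2 or a mean of at least 50 counts) and 3 (Cic-L-KO, with DESeq2, a mean of at least 50 counts or a non-robust fit). With flanks of 1 Mb, the share of flanking genes called fell to 9.38% in Cic-S-KO lung against WT and 6.25% against Cic-L-KO. The share called over all genes also moved with the setting, in Cic-L-KO lung to 7.68% with DESeq2 beside 4.89%. The cause of these shifts was not tested. With TMM over all libraries, Ciita alone changed its order between the brain regions.

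With 1 library left out, the number called ran from 2 to 4 in Cic-S-KO lung, 0 to 3 in Cic-L-KO lung, 0 to 0 between the lung knockouts, 1 to 1 and 1 to 3 in Cic-S-KO and Cic-L-KO cortex, 2 to 4 between the cortex knockouts, 3 to 5 and 4 to 5 in Cic-S-KO and Cic-L-KO cerebellum and 1 to 4 between the cerebellum knockouts, where Cic-L-KO replicate 5 alone gave 1.

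The labels do not say that a replicate number marks a shared animal or day, and not every same-numbered pair correlated: the deviations had a mean r of 0.146 in lung (16 of 24 pairs over 0.1), 0.0777 in cortex, 0.0222 in cerebellum and 0.0874 between cortex and cerebellum. In brain 6 of 7 Cic-S-KO samples per region carry another number in the library name than in the title, and the library names of both regions skip the same number. By library name the mean r was 0.0796 in cortex and 0.0881 in cerebellum. With a replicate block the number called was 4 between the cortex knockouts (H2-Eb1 and Cd74 joined) and 2 in Cic-S-KO cerebellum, where B2m (edgeR adjusted p = 0.0586) and Tap1 (0.0643) did not pass; the other counts stayed within 1.5 times. The block also ended the calls of H2-Q6 (0.0783) and H2-Q7 (0.0943) in Cic-S-KO lung, H2-Q7 in Cic-S-KO cerebellum (0.0571), H2-Eb1 in Cic-L-KO cerebellum (0.0598), Cd74 between the cerebellum knockouts (0.0846) and Psmb8 between the WT brain regions (0.0626), and brought in H2-Aa there (0.0297). With a replicate block by library name, an alternative chosen after seeing the data, all 6 counts in brain stayed within 1.5 times and Cd74 between the cerebellum knockouts did not pass (0.0621). The genes near 1 CPM in brain are limited by depth.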
